A study of Homo sapiens with 6 samples.

Results

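The HOX genes are homeobox genes that encode transcription factors of the body axis, and in human they lie in 4 clusters named HOXA, HOXB, HOXC and HOXD. CTCF peaks at these clusters were described in HCT-116 cells, which derive from a human colorectal carcinoma. The members were all peaks that overlapped the hg19 windows chr7:27120000-27260000 (HOXA), chr17:46595000-46820000 (HOXB), chr12:54320000-54460000 (HOXC) and chr2:176940000-177065000 (HOXD), which hold all 39 HOX genes. D3 had 39 of its 57935 peaks in these windows, E4 32 of 39434 and WT 33 of 38645. Overlapping peaks of the 3 lists were merged, which gave 42 of the 60235 regions of the whole series, with 13 in HOXA, 12 in HOXB, 11 in HOXC and 6 in HOXD.

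D3 and E4 are clones of HCT-116, each 1 clone, and both are labelled with the genotype "CTCF mutation", while WT is the wild-type line. The labels do not say where the mutation lies, and the title of the study concerns a distal CTCF binding site and the oncogene MYC. All cells were untreated. Each population had 1 library made with an antibody against CTCF, so no difference has a replicate check and no test was made. The 3 libraries made without antibody were not analysed here. A fold is the authors' enrichment of a peak, and −log10 q is the authors' measure of confidence in it. The depth behind these values is unknown, so a peak was placed within its own list. Its percentile is the share of that list's peaks with a lower −log10 q, and rank 1 is the strongest peak.

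HOX paralogues carry the numbers 1 to 13 by their order in the cluster, which follows the order in which they are expressed from head to tail in the embryo. Low numbers belong to anterior and high numbers to posterior parts. CTCF, a zinc-finger protein that stops cohesin and so anchors chromatin loops, binds between HOX genes. In the mouse, such sites in the Hoxa cluster are known to separate active genes from neighbours under Polycomb repression. HOXA13 and HOXB13 are known as genes of the hindgut.

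The peaks are on hg19, and no hg19 genome was used here, so the bases under the regions were not read. The sequences below were taken from RefSeq on GRCh38.p14 and are the 250 bases before a gene's start. HOXA10 is shown because a strong region of all 3 lists was the sole region between it and HOXA11. HOXA9 is shown because the D3 peak of a weak region covered its start. HOXD10 is shown because the region in it had the largest rank difference above 0 for D3 minus WT among the HOX regions. HOXD1 is shown because no list had a peak near it. The core of the CTCF motif was searched on both strands as CC, 3 bases of any kind, AG, 2 bases of any kind and GGC, and no other motif was searched. Of the 39 HOX genes 20 had a promoter in the RefSeq table, with 27 entries. A match was found in 4 of them (14.8%), those of HOXA10, HOXA11, HOXD10 and HOXD1, against 10.6% of all 35116 entries searched the same way. For these shares each whole entry was searched, which may run past the 250 bases shown. Capitals mark the match. The bases shown lie at chr7:27179862-27180111 on the minus strand for HOXA10 and at chr2:176116528-176116777 on the plus strand for HOXD10. Those of HOXD1 lie at chr2:176188418-176188667 on the plus strand. Those of HOXA9 lie at chr7:27165538-27165787 on the minus strand and hold no match.
HOXA10: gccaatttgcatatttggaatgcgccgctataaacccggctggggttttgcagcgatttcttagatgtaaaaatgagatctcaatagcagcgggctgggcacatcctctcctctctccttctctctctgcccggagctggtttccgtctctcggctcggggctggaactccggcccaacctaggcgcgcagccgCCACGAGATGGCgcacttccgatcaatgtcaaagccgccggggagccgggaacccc
HOXD10: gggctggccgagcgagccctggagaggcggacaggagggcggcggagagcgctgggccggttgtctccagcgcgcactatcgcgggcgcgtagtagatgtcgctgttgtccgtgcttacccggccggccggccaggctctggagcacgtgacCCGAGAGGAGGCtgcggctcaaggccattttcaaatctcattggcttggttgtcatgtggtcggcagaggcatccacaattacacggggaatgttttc
HOXD1: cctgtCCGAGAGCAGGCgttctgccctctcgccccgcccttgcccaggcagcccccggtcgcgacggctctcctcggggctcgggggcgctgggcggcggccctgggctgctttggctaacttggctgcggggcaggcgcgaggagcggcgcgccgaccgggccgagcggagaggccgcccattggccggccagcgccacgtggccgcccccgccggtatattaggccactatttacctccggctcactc
HOXA9: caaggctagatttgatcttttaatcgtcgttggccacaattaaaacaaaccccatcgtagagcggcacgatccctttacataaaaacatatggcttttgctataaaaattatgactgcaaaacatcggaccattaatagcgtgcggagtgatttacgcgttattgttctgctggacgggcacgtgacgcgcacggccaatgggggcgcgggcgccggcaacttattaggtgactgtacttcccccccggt
HOXA10, a gene of uterus and limb development, has 44 bases between the match and the start. This entry belongs to the transcript that starts farther from HOXA9, in the interval between the shorter HOXA10 transcript and HOXA11. HOXD10 has 86 bases between match and start and HOXD1 233. No region covered the start of HOXA11, HOXD10 or HOXD1 in the gene positions used here, which do not hold the start of this longer HOXA10 transcript. A match describes these letters and not a bound site.

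With an overlap of at least 1 bp, most HOX regions were called in every list, and most of those were strong peaks of their lists. All 3 lists called 28 of the 42 regions, or 66.7% (exact 95% interval 50.5 to 80.4), against 53.9% of all regions. The share over all regions lay within this interval. When a list's peak had to cover 50% of its region, 21 of the 42 were called in all 3 lists. The share of all regions under that rule was not counted, and the 53.9% holds for 1 bp only. By the 1 bp overlap, HOXD had 6 of 6 regions called in all 3 lists, HOXB 10 of 12, HOXA 8 of 13 and HOXC 4 of 11. At or above the 50th percentile of every list lay 23 HOX regions, which is 54.8% of them against 25.8% of all regions. Another count, of regions at or above the 90th percentile of every list, gave 7, or 16.7% against 3.98%. Intervals cover counting error only and treat neighbouring peaks as independent.

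The median percentile of HOX peaks was 80.5 for D3, 81.2 for E4 and 82.2 for WT. Of the D3 peaks 14 of 39 were at or above the 90th percentile, of the E4 peaks 11 of 32 and of the WT peaks 10 of 33, beside 10.0% of each whole list. A −log10 q of 5 or more was reached by 32 of 39 D3 peaks, against 67.5% of that list, by 25 of 32 E4 peaks, against 65.9%, and by 25 of 33 WT peaks, against 53.0%. The clusters were not alike. HOXB peaks had median percentiles of 92.7 for D3, 87.5 for E4 and 89.4 for WT, and HOXD peaks 90.7 for D3, 89.8 for E4 and 78.6 for WT. HOXC peaks were weaker, with 43.4 for D3, 38.3 for E4 and 48.6 for WT, and HOXA had 57.0 for D3, 84.2 for E4 and 83.6 for WT. Over the 4 windows together HOX peaks were also wide. Median widths were 1112 bp for D3, 943.5 bp for E4 and 872 bp for WT, against 873 bp, 750 bp and 639 bp over the same whole lists. HOXC went the other way, with 678 bp for D3, 579 bp for E4 and 606 bp for WT.

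**Figure D1:**
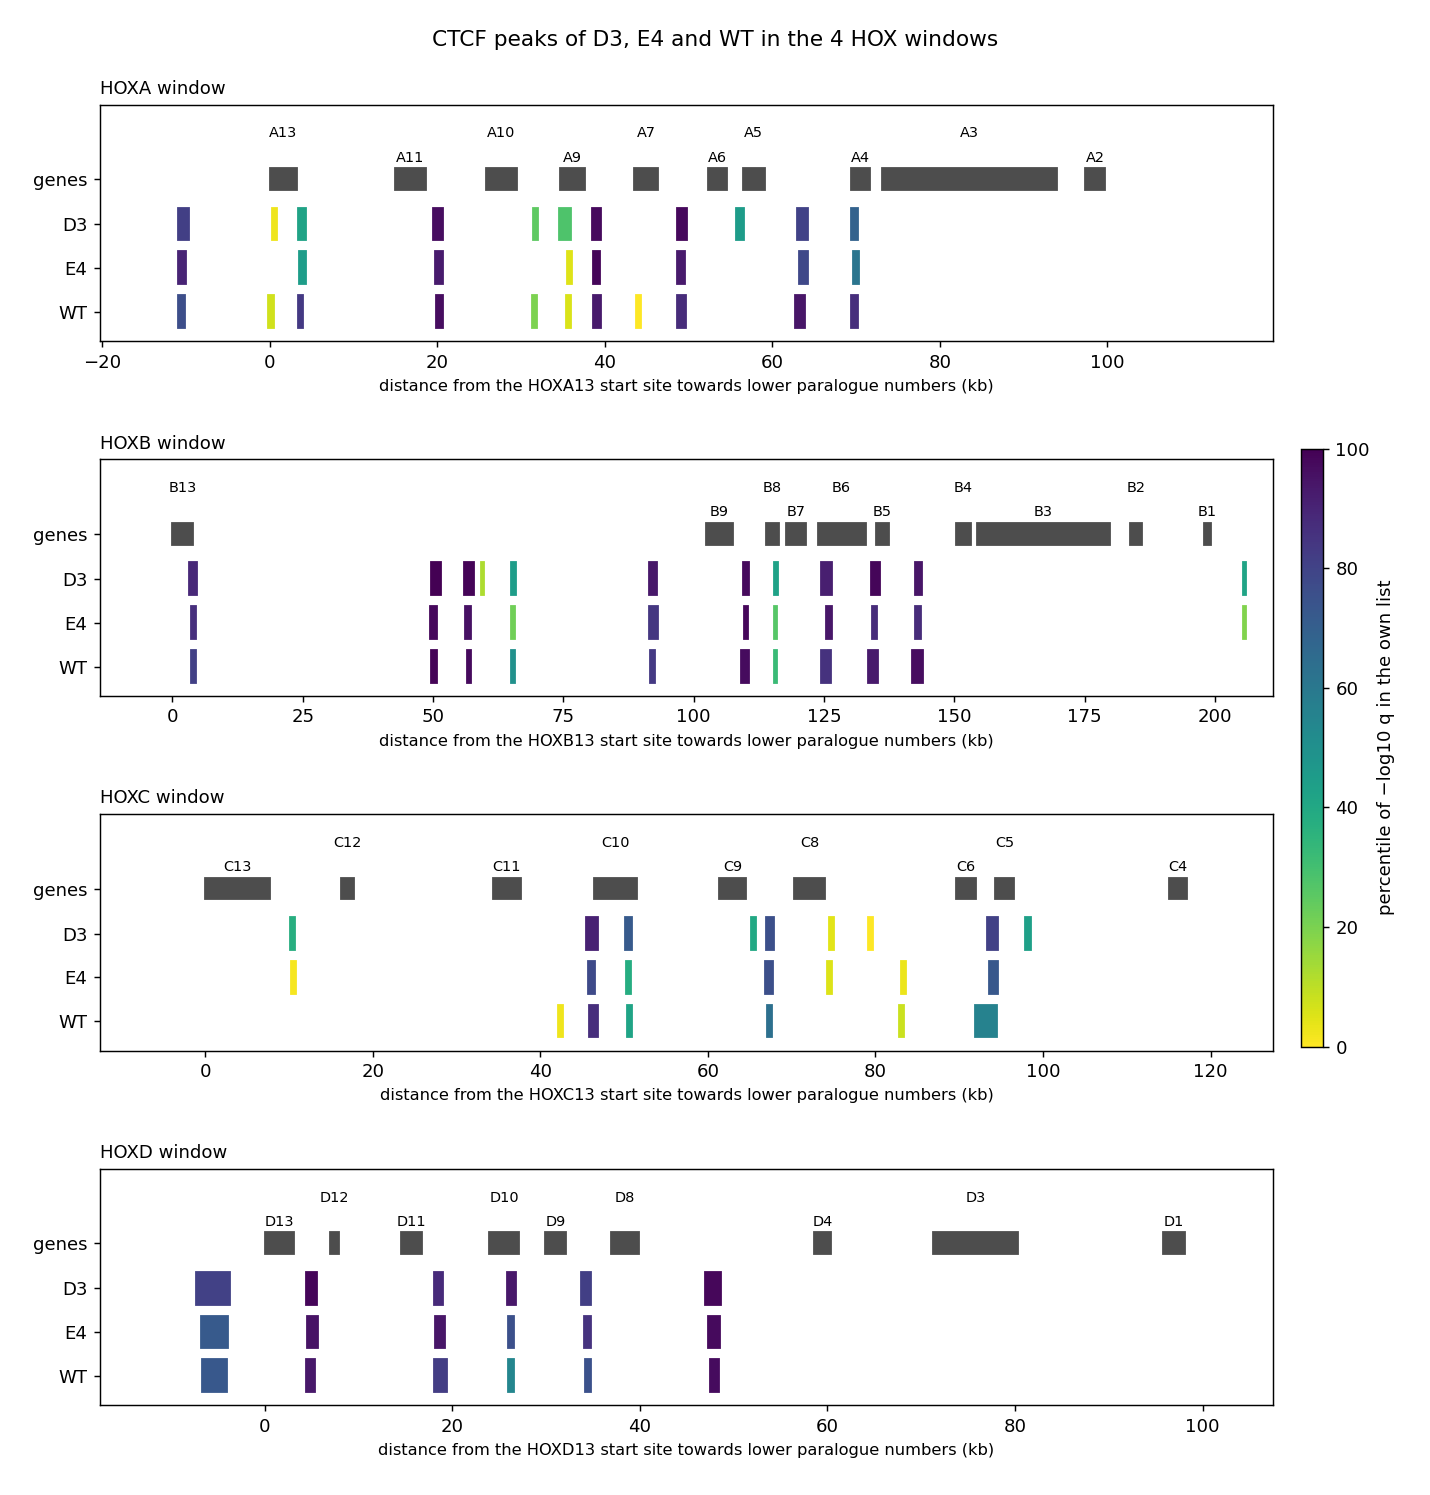
Peaks of D3, E4 and WT in the 4 HOX windows, with the horizontal axis in kb from the start of the paralogue numbered 13 and genes drawn as grey boxes. Colour gives the percentile of a peak in its own list, and peaks narrower than 0.6 kb are drawn 0.6 kb wide. All 6 HOXD regions appear in all 3 rows, and the stretches of paralogues 1 to 3 of HOXB and HOXD, as drawn, hold no peak.

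In HOXA, the strongest regions stood between neighbouring genes as placed here. The region chr7:27200180-27201294 between HOXA7 and HOXA9, a gene of blood progenitors and leukaemia, was the strongest by its mean over the lists. It was at percentile 97.6 (rank 1385) in D3, 98.6 (rank 533) in E4 and 93.2 (rank 2625) in WT. Its fold was 14 for D3, 16.8 for E4 and 8.35 for WT, and its −log10 q was 48.5 for D3, 47.9 for E4 and 16.7 for WT. All 3 lists thus placed it among their strongest peaks.

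Close to it in strength was chr7:27219024-27220246 between HOXA10 and HOXA11, the interval introduced above, at percentile 96.8 (rank 1860) in D3, 92.6 (rank 2919) in E4 and 96.5 (rank 1355) in WT. This was the strongest HOXA peak of WT. The region chr7:27189890-27191176 between HOXA6 and HOXA7, genes of the trunk, was at percentile 97.7 (rank 1305) in D3, 93.1 (rank 2710) in E4 and 87.5 (rank 4817) in WT, and it was the strongest HOXA peak of D3. The strongest HOXA peak thus differed between the 3 lists, and E4 had it between HOXA7 and HOXA9.

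The posterior end was chr7:27249343-27250717, beyond HOXA13, a gene of the hindgut and digits. It was at percentile 81.5 (rank 10741) in D3, 90.2 (rank 3866) in E4 and 76.4 (rank 9116) in WT. Its fold was 10.3 for D3, 12.8 for E4 and 6.8 for WT, and its −log10 q was 22.2 for D3, 25.6 for E4 and 9.63 for WT. Among the regions called in all lists, too, E4 placed it highest. Between HOXA11, a gene of limb and kidney, and HOXA13, chr7:27235393-27236427 was at percentile 42.1 (rank 33532) in D3, 44.6 (rank 21844) in E4 and 83.6 (rank 6349) in WT. Both clones thus placed it far below WT. RefSeq gives HOXA13 a span of 5728 bp, against 3227 bp in the positions used here, so this region may lie within HOXA13.

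On the anterior side, chr7:27175467-27176978 between HOXA4, a gene of the neck, and HOXA5, a gene of lung development, was at percentile 80.2 (rank 11495) in D3, 78.2 (rank 8614) in E4 and 94.5 (rank 2115) in WT. The region chr7:27169367-27170374 overlapped HOXA4 and was at percentile 68.8 (rank 18073) in D3, 61.3 (rank 15264) in E4 and 86.7 (rank 5121) in WT. WT placed both of these highest, also among the regions called in all lists. The weakest HOXA region called in all lists, chr7:27203819-27205156 over the start of HOXA9, was at percentile 28 (rank 41724) in D3, 4.89 (rank 37504) in E4 and 5.77 (rank 36414) in WT. Its fold was 4.4 for D3, 3.39 for E4 and 3.34 for WT, and its −log10 q was 4.3 for D3, 1.68 for E4 and 1.65 for WT. Only the D3 peak of this region reached the start of HOXA9, as the E4 peak ended at 27204276 and the WT peak at 27204335.

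The other 5 HOXA regions were not called in every list, and all were below the 50th percentile. D3 alone called chr7:27183177-27184023 over the start of HOXA5, at percentile 45.2 (rank 31736) in D3.

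D3 and WT without E4 called chr7:27207984-27208399 between HOXA9 and HOXA10, at percentile 24.8 (rank 43566) in D3 and 19.6 (rank 31061) in WT. They also called chr7:27239021-27239928 over the start of HOXA13 and HOTTIP, a non-coding RNA gene beside it, at percentile 2.73 (rank 56353) in D3 and 7.25 (rank 35845) in WT. The D3 peak of that region ended at 27239422, so only the WT peak reached the HOXA13 start. WT alone called chr7:27195819-27196066 in HOXA7, at percentile 0.204 (rank 38566) in WT. None of these reached the 25th percentile.

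HOXB held the strongest HOX peak of D3 and of WT, in the long interval between HOXB9 and HOXB13, a gene of the hindgut and prostate. The region chr17:46754670-46756693 was at percentile 99.8 (rank 122) in D3, 97.8 (rank 860) in E4 and 99.1 (rank 353) in WT. Its fold was 25.8 for D3, 11.7 for E4 and 14.3 for WT, and its −log10 q was 82.8 for D3, 42.7 for E4 and 28.2 for WT. Beside it at a gap of 4.56 kb, chr17:46748327-46750111 was at percentile 99.1 (rank 517) in D3, 95.6 (rank 1754) in E4 and 97.6 (rank 918) in WT. Both were near the top of all 3 lists.

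By the gene positions used here the interval between HOXB9 and HOXB13 spans 98.3 kb and held 6 regions, of which 5 were called in all 3 lists. Nearest to HOXB9, a gene of the thoracic skeleton, chr17:46712901-46714760 was at percentile 93.7 (rank 3655) in D3, 84.2 (rank 6222) in E4 and 83.3 (rank 6460) in WT. Weaker was chr17:46740211-46741219, at percentile 44.7 (rank 32047) in D3, 21.6 (rank 30912) in E4 and 49.6 (rank 19473) in WT. D3 alone called chr17:46746512-46746934, at percentile 12.2 (rank 50888) in D3. The interval thus held strong and weak regions side by side.

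The posterior end of the cluster was chr17:46801358-46802856 in HOXB13, at percentile 88.8 (rank 6479) in D3, 86.7 (rank 5258) in E4 and 81.1 (rank 7308) in WT. Its fold was 12.3 for D3, 10.1 for E4 and 6.93 for WT, and its −log10 q was 28.7 for D3, 22.2 for E4 and 10.9 for WT. It lay above the 80th percentile of every list.

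Among the genes HOXB4 to HOXB9 there were 5 regions, each called in all 3 lists. The strongest by its mean, chr17:46695424-46697070 between HOXB8 and HOXB9, was at percentile 97.4 (rank 1494) in D3, 98.1 (rank 752) in E4 and 96.9 (rank 1198) in WT, and it was the strongest HOXB peak of E4. The start of HOXB5, a gene of lung and enteric nerve development, was covered by chr17:46670442-46672573, at percentile 98.5 (rank 885) in D3, 87.5 (rank 4913) in E4 and 93.1 (rank 2648) in WT. Between HOXB4, a gene of blood stem cells, and HOXB5, chr17:46662127-46664195 was at percentile 94.5 (rank 3174) in D3, 87.8 (rank 4826) in E4 and 96.6 (rank 1304) in WT. All 3 of these were above the 87th percentile of every list.

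In HOXB6, chr17:46679509-46681668 was at percentile 91.6 (rank 4847) in D3, 93.8 (rank 2453) in E4 and 85.6 (rank 5567) in WT. By its mean over the lists, the weakest HOXB region called in all of them was chr17:46689989-46690724 at HOXB8, a gene of myeloid progenitors, at percentile 42.5 (rank 33290) in D3, 26.3 (rank 29054) in E4 and 32.3 (rank 26161) in WT. Its fold was 5.2 for D3, 4.14 for E4 and 4.41 for WT, and its −log10 q was 6.88 for D3, 3.95 for E4 and 3.62 for WT. No list placed it above the 43rd percentile.

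Beyond HOXB1, a gene of the hindbrain, chr17:46600304-46600781 marked the anterior end and was called in D3 and E4 and not in WT, at percentile 41.4 (rank 33946) in D3 and 19 (rank 31952) in E4. Its fold was 5.02 for D3 and 4.06 for E4, and its −log10 q was 6.63 for D3 and 3.13 for E4. From there to the region between HOXB4 and HOXB5 no list had a peak over 61.3 kb.

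HOXC had the fewest regions called in every list, 4 of 11. The strongest was chr12:54377993-54379411 over the start of HOXC10, a gene of the lumbar region and hindlimb, at percentile 90.8 (rank 5358) in D3, 77.6 (rank 8851) in E4 and 87 (rank 5006) in WT. Its fold was 14.4 for D3, 7.56 for E4 and 8.22 for WT, and its −log10 q was 31.3 for D3, 16.4 for E4 and 13 for WT. It led HOXC in each list by −log10 q, but by fold its place in E4 was 3, where chr12:54424507-54427255 came first.

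That region overlapped HOXC6 and the start of HOXC5, genes of the neck and thorax, and was at percentile 80.5 (rank 11273) in D3, 72.7 (rank 10761) in E4 and 55.7 (rank 17133) in WT. Between HOXC9 and HOXC8, genes of the thorax, chr12:54399426-54400428 was at percentile 75.9 (rank 13991) in D3, 76.1 (rank 9407) in E4 and 63.6 (rank 14055) in WT. Both lay above the 50th percentile of every list. The weakest HOXC region called in all lists, chr12:54382638-54383559 in HOXC10, was at percentile 72.3 (rank 16070) in D3, 38.3 (rank 24349) in E4 and 41.5 (rank 22622) in WT. Its fold was 8.86 for D3, 4.05 for E4 and 4.43 for WT, and its −log10 q was 16.7 for D3, 5.62 for E4 and 4.44 for WT.

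The other 7 HOXC regions were missing from at least 1 list, and none reached the 50th percentile of a list. The posterior end was chr12:54342661-54343284 between HOXC13, a gene of hair and nails, and HOXC12, called in D3 and E4, at percentile 37.2 (rank 36389) in D3 and 1.56 (rank 38820) in E4. Its fold was 4.86 for D3 and 3.2 for E4, and its −log10 q was 5.82 for D3 and 1.19 for E4. The anterior end was chr12:54430465-54431142 between HOXC5 and HOXC4, called in D3 alone, at percentile 43.4 (rank 32785) in D3, with a fold of 6.01 at a −log10 q of 7.07. Both ends of HOXC thus lacked a WT peak.

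Between HOXC8 and HOXC6 the 3 regions differed in their calling lists. D3 and E4 called chr12:54406807-54407472, at percentile 4.66 (rank 55234) in D3 and 5.25 (rank 37363) in E4. D3 alone called chr12:54411631-54411909, at percentile 0.0811 (rank 57888) in D3. E4 and WT called chr12:54415435-54416029, at percentile 2.9 (rank 38291) in E4 and 7.87 (rank 35603) in WT. All 3 were below the 8th percentile.

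D3 alone also called chr12:54397719-54398073 between HOXC9 and HOXC8, at percentile 39.9 (rank 34828) in D3. WT alone called chr12:54374680-54374964 between HOXC11 and HOXC10, at percentile 2.71 (rank 37598) in WT. The D3 peak was thus of middle strength and the WT peak weak.

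In HOXD, each of the 6 regions was called in all 3 lists and lay above the 50th percentile of each. The region chr2:177004510-177006199 between HOXD8 and HOXD4, genes of the trunk and hindbrain, was the strongest by its mean, at percentile 98.3 (rank 1007) in D3, 97.7 (rank 926) in E4 and 96.9 (rank 1197) in WT. Its fold was 17.5 for D3, 17.4 for E4 and 9.81 for WT, and its −log10 q was 52.1 for D3, 42 for E4 and 21 for WT. It was also the anterior end. From it to the end of the window, past HOXD4, HOXD3 and HOXD1, no list had a peak, and the next region lay 69.3 kb beyond the window and was called in E4 only.

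Between HOXD13 and HOXD12, genes of the digits, chr2:176961941-176963197 was at percentile 98.7 (rank 741) in D3, 94.9 (rank 2000) in E4 and 93.7 (rank 2444) in WT, and it led HOXD in D3 by −log10 q. By fold its place there was 2, after the region between HOXD8 and HOXD4. The posterior end was chr2:176950225-176953800, beyond HOXD13 on the side of EVX2, a homeobox gene next to the cluster, at percentile 80.6 (rank 11258) in D3, 72.1 (rank 10999) in E4 and 73 (rank 10450) in WT. Its fold was 10.1 for D3, 7.35 for E4 and 6.63 for WT, and its −log10 q was 21.5 for D3, 14 for E4 and 8.83 for WT. At 3576 bp it was the widest HOX region.

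Between HOXD11, a gene of the forearm, and HOXD10, a gene of the hindlimb, chr2:176975547-176977025 was at percentile 88 (rank 6948) in D3, 94.2 (rank 2275) in E4 and 82.2 (rank 6866) in WT. Between HOXD9 and HOXD8, chr2:176991225-176992336 was at percentile 81.3 (rank 10848) in D3, 85.4 (rank 5755) in E4 and 75 (rank 9652) in WT. Both lay at or above the 75th percentile of every list. The weakest by its mean was chr2:176983397-176984327 in HOXD10, at percentile 93.5 (rank 3785) in D3, 75.7 (rank 9602) in E4 and 54.1 (rank 17721) in WT. Its fold was 15.3 for D3, 9.67 for E4 and 5.24 for WT, and its −log10 q was 35.6 for D3, 15.5 for E4 and 5.8 for WT.

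**Figure D2:**
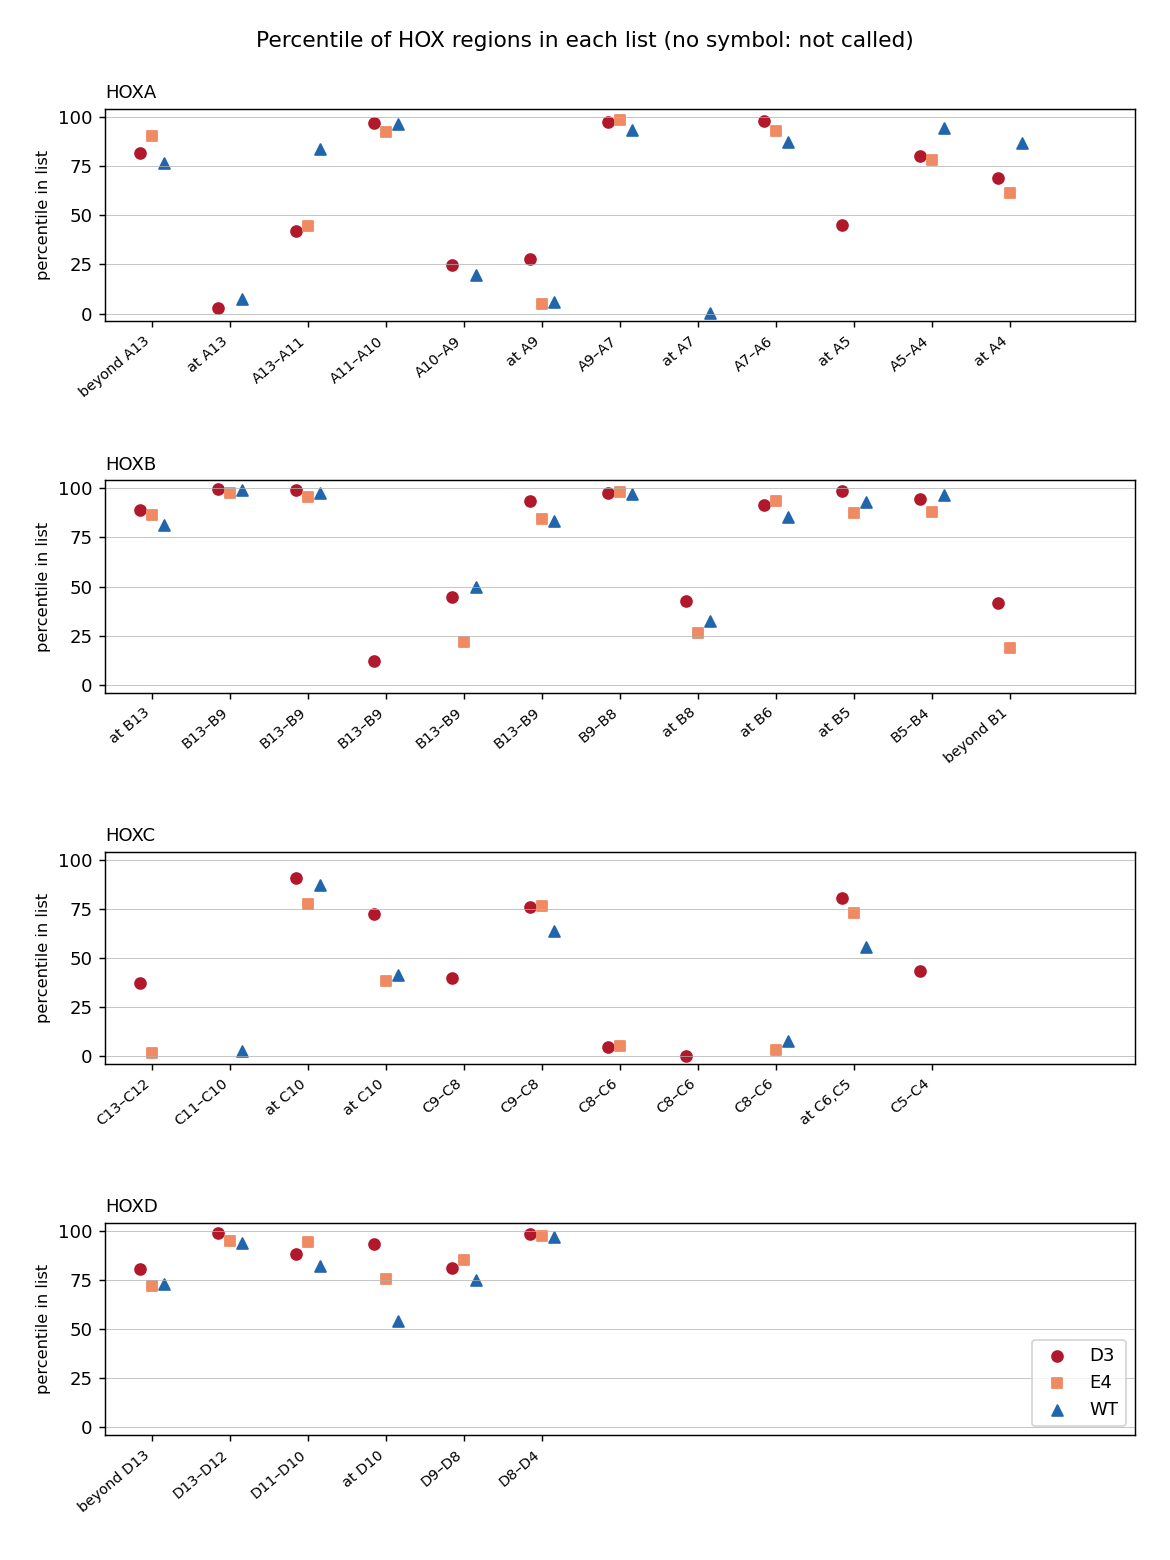
Percentile of −log10 q of HOX regions (vertical axis, percent of the own list's peaks that are weaker) in D3, E4 and WT, with regions along the horizontal axis from high to low paralogue numbers and named by the gene they overlap or the genes on either side. A missing symbol means that the list had no peak. The 6 HOXD regions have 3 symbols each, all at 54.1 or above, and HOXC has 4 of 11 regions with 3 symbols.

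Seen by paralogue number, the anterior stretches of HOXB and HOXD were free of peaks in the short gene models used here. RefSeq gives HOXB3 a span of 41372 bp, against 25579 bp here, so a longer HOXB3 may reach the region between HOXB4 and HOXB5. From paralogue 1 to paralogue 3, over 45 kb in HOXB and 26.8 kb in HOXD, D3 had 0 peaks, E4 had 0 and WT had 0. HOXC has no paralogues 1 to 3. From paralogue 4 to 9, 5 regions were called in all lists over 37 kb in HOXA, 5 over 51 kb in HOXB, 2 over 55.9 kb in HOXC and 2 over 30.5 kb in HOXD. From paralogue 10 to 13 there were 2 such regions over 29.5 kb in HOXA, 2 over 51.5 kb in HOXC and 3 over 27.1 kb in HOXD.

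More regions lay beside HOX genes than over them. Of the 42 regions 13 overlapped a HOX gene and 29 overlapped none. The share of the windows that the genes fill was not set beside these counts. They therefore show no preference for either place. In the gene positions used here, a gene start was covered by 6, those of HOXA5, HOXA9, HOXA13, HOXB5, HOXC5 and HOXC10. HOXA10 spans 9257 bp in RefSeq, against 3746 bp here, so the region between HOXA10 and HOXA11 may cover a further start. Among the 28 regions called in all lists 10 overlapped a HOX gene. Counted by gene, 13 of 39 HOX genes were overlapped by a region. A region with a D3 peak overlapped 12, one with an E4 peak 10 and one with a WT peak 12. These counts use merged regions, so a list's own peak may stop short of the gene, as in D3 and E4 at HOXC6. Places rest on short gene models. RefSeq lists longer transcripts on GRCh38.p14 for HOXA3, HOXA10, HOXA13, HOXB3, HOXC4, HOXC5, HOXC6, HOXD3, HOXD11 and HOXD13 among others. A region between genes may thus still lie within a transcript.

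The windows were dense in peaks beside their surroundings at HOXA and HOXD. HOXA held 8.57 peaks per 100 kb in D3, 5.71 in E4 and 7.86 in WT. The 200 kb on each side of it had 1.5 for D3, 0.75 for E4 and 0.75 for WT. HOXD held 4.8 per 100 kb in each list, and its flanks 0.25 in D3, 0.5 in E4 and 0 in WT. With 500 kb on each side the HOXD flanks held 1.1 for D3, 0.7 for E4 and 0.7 for WT, and the HOXA flanks 1.9 for D3, 1.3 for E4 and 1.3 for WT. The gap was small at HOXB, with 5.33 in D3, 4.89 in E4 and 4.44 in WT in the window, and 4.75, 3.25 and 3.25 for the same lists in the flanks. HOXC held 6.43 for D3, 5 for E4 and 4.29 for WT, and its flanks 4.25, 3.25 and 3.5 for the same lists. Over the genome, up to the last peak of each chromosome, there were 1.9 peaks per 100 kb in D3, 1.29 in E4 and 1.26 in WT.

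**Figure D3:**
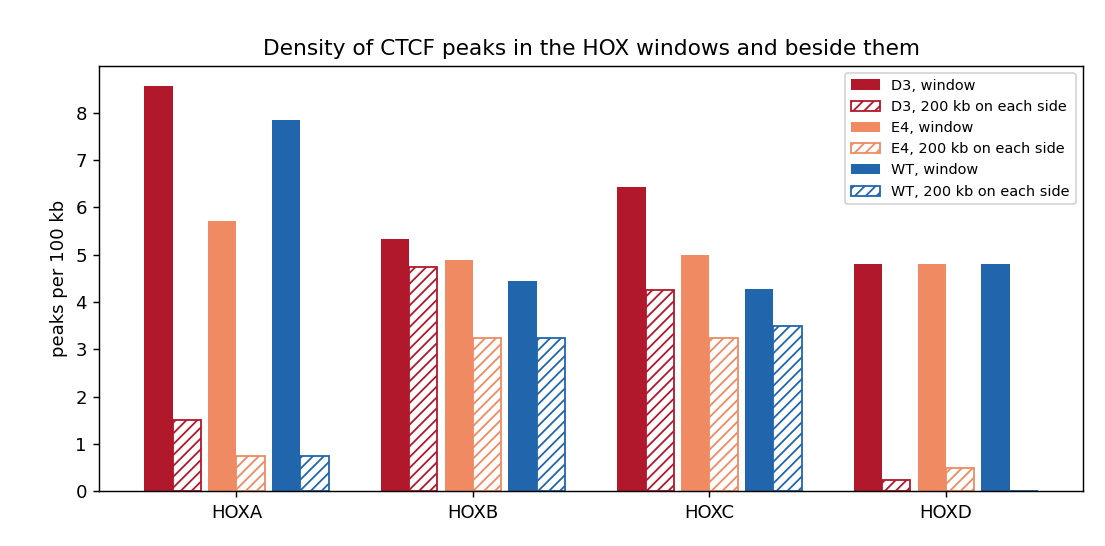
Peaks per 100 kb (vertical axis) in each HOX window (filled bars) and in the 200 kb on each side of it (hatched bars) for D3, E4 and WT, with 1 library each and no error bars. The gap between window and flanks is large at HOXA and HOXD, where the WT flanks hold 0.75 and 0, and small at HOXB.

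How far the clones held the HOX peaks of WT was counted next. D3 overlapped 30 of the 33 WT peaks (90.9%, interval 75.7 to 98.1), where the whole WT list had 95.9%, and 3 had no D3 peak, against 4.05% of the list. E4 overlapped 29 (87.9%, interval 71.8 to 96.6), where the whole list had 85.7%, and 4 had no E4 peak, against 14.3%. Both clones together overlapped 28, against 85.4%. The whole-list shares of both clones lay within these intervals. HOXB kept 10 of 10 WT peaks and HOXD 6 of 6 in each clone. HOXA kept 10 of 11 in D3 and 8 of 11 in E4, and HOXC 4 of 6 in D3 and 5 of 6 in E4.

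The 5 WT peaks that a clone lacked were all weak, with a −log10 q under 5. Of the 8 HOX peaks of WT under 5, D3 lacked 3, against 8.56% of all WT peaks under 5. E4 lacked 4 of these 8, against 28.2%. D3 and E4 both lacked the peak in HOXA7, with a fold of 3.0 at a −log10 q of 1.13, and the peak between HOXC11 and HOXC10, with 3.23 and 1.43. These 2 of 33 peaks stand against 3.69% of all WT peaks. Near the HOXA7 site the closest D3 peak was at 4.11 kb and the closest E4 peak at 4.2 kb. D3 alone lacked the WT peak between HOXC8 and HOXC6, with a fold of 3.46 at a −log10 q of 1.78. E4 alone lacked the one between HOXA9 and HOXA10, with 3.92 and 2.62, and the one at HOXA13, with 3.43 and 1.73. Each clone overlapped all 25 HOX peaks of WT with a −log10 q of 5 or more, where over the whole list D3 lacked 0.0634% and E4 1.95% of such peaks.

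Peaks of the clones without a WT peak were counted in turn. D3 had 9 of 39 (23.1%, interval 11.1 to 39.3), where the whole D3 list had 36.9%. E4 had 3 of 32 (9.38%, interval 1.98 to 25.02), where the whole E4 list had 16.6%. The whole-list shares lay within these intervals. By cluster, D3 had 2 of 12 in HOXA, 2 of 12 in HOXB, 5 of 9 in HOXC and 0 of 6 in HOXD. E4 had 0 of 8 in HOXA, 1 of 11 in HOXB, 2 of 7 in HOXC and 0 of 6 in HOXD. Between the clones, 8 of 39 D3 peaks had no E4 peak, against 34.0%, and 1 of 32 E4 peaks had no D3 peak, against 2.54%. No region without a WT peak reached the 50th percentile of a clone's list, and the highest was the D3 region at the start of HOXA5.

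Counted by region, WT called 33 of 42, against 63.2% of all regions. D3 alone called 6, against 26.1%, E4 alone 0, against 1.45%, and WT alone 2, against 2.37%. D3 and E4 without WT shared 3, against 9.31%, D3 and WT without E4 shared 2, against 6.62%, and E4 and WT without D3 shared 1, against 0.216%. Regions in E4 and not in D3 thus numbered 1, against 1.67%. Of the 3 regions of both clones without WT 1 lay beyond HOXB1, 1 between HOXC13 and HOXC12 and 1 between HOXC8 and HOXC6.

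D3 had the longest list, so the counts were repeated with each list held to its 38645 strongest peaks. D3 then had 32 of its 39 HOX peaks, where 38645 of its 57935 peaks were kept over the whole list. E4 had 31 of its 32, where 38645 of 39434 were kept. All 3 lists then called 27 regions, and the region at HOXA9 was called in E4 and WT only. The share of all regions called in all 3 lists at equal length was not counted. D3 and E4 without WT shared 1 region, the one beyond HOXB1. The HOXA count became 8 in D3 and 8 in E4, against 11 in WT. Among the regions of D3 alone, those at HOXA5, between HOXC9 and HOXC8 and between HOXC5 and HOXC4 were still called.

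Ranks were then compared among the 32495 regions of the series called in all 3 lists, which give lists of equal length and include 28 HOX regions. The median difference in percentile was 0.21 points for D3 minus WT, against −0.02 over all shared regions, and −0.12 for E4 minus WT, against 0.27. The rank was higher in D3 than in WT for 14 of 28 regions, against 49.9% of all shared regions, and higher in E4 than in WT for 14 of 28, against 50.9%. Both comparisons use the same WT library. Single regions nevertheless moved far.

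The region between HOXA11 and HOXA13, chr7:27235393-27236427, was at percentile 11.1 of the shared regions in D3 and 34.2 in E4, against 80.6 in WT. The difference was -69.5 points for D3 minus WT, and 0.0277% of all shared regions had a lower one. For E4 minus WT it was -46.4 points, with 1.41% lower. The fold was 5.47 for D3, 6.06 for E4 and 8.28 for WT, and the −log10 q was 6.78 for D3, 6.68 for E4 and 11.7 for WT. The peak was 1035 bp wide in D3 and 881 bp in E4, against 476 bp in WT. Median widths of the whole lists ran in the same order, 873 bp for D3, 750 bp for E4 and 639 bp for WT.

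A pair of regions on the anterior side of HOXA were lower in the clones as well. The region at HOXA4 differed by −38.8 points for D3 minus WT and −30.9 for E4 minus WT, and the one between HOXA4 and HOXA5 by −28.6 and −19.9 in the same comparisons. The weaker region chr17:46740211-46741219 between HOXB9 and HOXB13 differed by −28.5 for D3 and −29.7 for E4. Below the 10th percentile of the differences of all shared regions, −23.5 points for D3 and −24.3 for E4, lay these 4 of 28 HOX regions in D3 and 3 of 28 in E4, beside 10.0% of all shared regions.

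The opposite was seen at HOXD10. Its region chr2:176983397-176984327 was at percentile 88.4 of the shared regions in D3 and 70.6 in E4, against 46.8 in WT, a difference of 41.6 points for D3 and 23.8 for E4. It was the 1 HOX region above the 90th percentile of the D3 differences, 23.4 points, and no HOX region was above that of E4, 23.9 points, beside 10.0% in each case. At HOXC6 and HOXC5 the region differed by 17.1 points for D3 and 18.6 for E4. Per cluster the median difference for D3 was −3.34 in HOXA, 0.96 in HOXB, 8.48 in HOXC and 0.10 in HOXD. For E4 it was −2.83 in HOXA, −2.07 in HOXB, 4.03 in HOXC and 6.51 in HOXD.

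**Figure D4:**
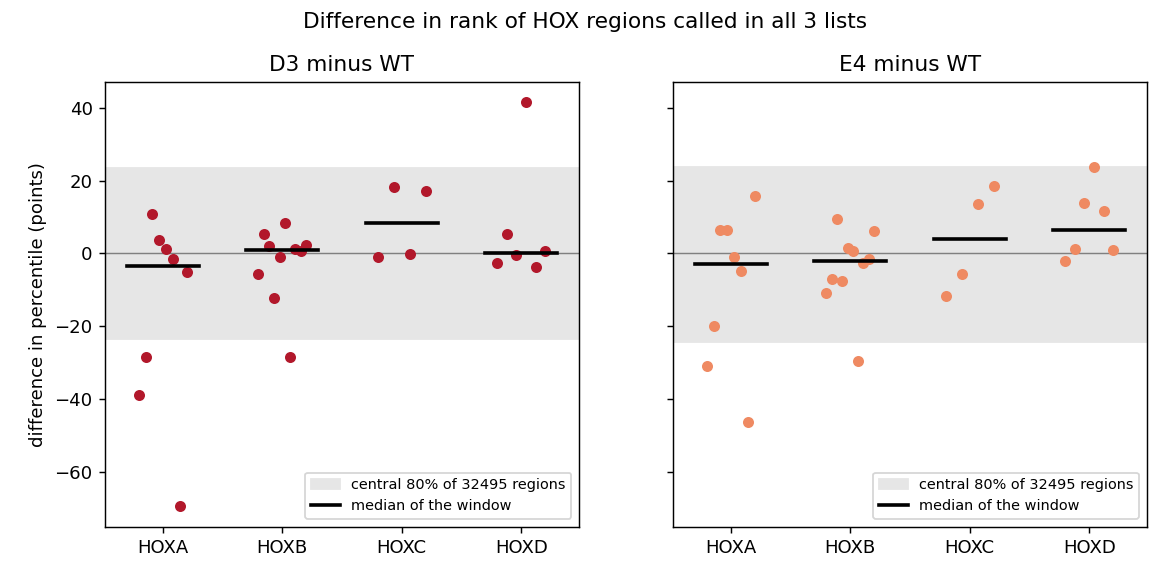
Difference in percentile (points, vertical axis) of the 28 HOX regions called in all 3 lists, by cluster, for D3 minus WT (left) and E4 minus WT (right), with the percentile taken among the 32495 regions of all 3 lists. Points are regions, black bars are medians of a window and the grey band holds the central 80% of all 32495 regions. Below the band lie 3 HOXA points and 1 HOXB point in D3 and 2 HOXA points and 1 HOXB point in E4, and the HOXD10 point lies above it in D3.

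Across the 28 regions the order of strength was much alike in the lists. Spearman's rho of the percentiles was 0.78 between D3 and WT, 0.79 between E4 and WT and 0.86 between D3 and E4, against 0.79, 0.78 and 0.81 for the same pairs across all 32495 regions. These are descriptions of points that share their libraries.

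Related homeobox genes were counted with 10 kb on either side. The list held 17 genes. ParaHox and MEOX genes are relatives of HOX, and the products of PBX, MEIS and PKNOX genes bind DNA together with HOX proteins. A region was found at 11 of them, with 35 peaks in D3, 25 peaks in E4 and 26 peaks in WT, and 21 of 35 regions were called in all 3 lists (60%, against 53.9% of all regions). CDX2, a master factor of intestinal identity, had 2 regions of all lists, the stronger at percentile 97.9 in D3, 98.4 in E4 and 99.2 in WT. PKNOX2 had the most, 13 regions, of which 8 were in all lists. PDX1, GSX2, CDX4, MEOX1, MEOX2 and PBX3 had no peak in any list.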

How the data were processed

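Per the labels' protocols, chromatin was fixed with formaldehyde, sonicated, purified with an antibody against CTCF and sequenced with paired reads. Per the submitters' processing notes, the tools were MACS2 2.2.7.1, bedtools 2.29.2, Picard 2.23.1 and CASAVA 1.8.2 and the build was hg19, without role or order. Aligner, call settings and the use of controls are points not given in the sources used here. Each library has 1 broadPeak list deposited by the authors, with a fold (a ratio), a −log10 p and a −log10 q for every peak. The deposited score was not used. Depth is unknown, so peak values were compared within their own list only.

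Peaks overlapping by at least 1 bp were merged (Python 3.11.15, pandas 2.3.3, numpy 2.4.6), and the merging was tested on simulated lists. Shares carry exact Clopper-Pearson 95% intervals (scipy 1.17.1). As alternatives, lists were limited to a −log10 q of at least 5 or to equal length by −log10 q or by fold, overlap was set to 50% coverage, windows were made 20 kb wider, peaks up to 500 bp apart were merged, and flanks were set to 500 kb.

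HOX gene positions on hg19 were written from general knowledge. All 39 genes were found in the RefSeq table of GRCh38.p14 on the same chromosome and in the same order within each cluster. The spacing of their 3′ ends matched within 1 kb for 10 of 11 genes in HOXA, 10 of 10 in HOXB, 7 of 9 in HOXC and 7 of 9 in HOXD. No coordinates were carried between builds.

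The members and lists were chosen with earlier results of these data known. The regions of the windows were named, except that 1 HOXA region and 1 HOXA gene are counted but not reported or drawn here. Fold and −log10 q were added for the strongest and weakest shared regions, the cluster ends and the WT peaks missing from a clone, and for the region between HOXA11 and HOXA13, which was singled out after its values were seen.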

Additional observations from a re-analysis of the deposited data

Results flagged for a closer look

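HOXA peak counts differed in direction between the clones, with 12 in D3, which is above WT, 8 in E4, which is below it, and 11 in WT, so that D3 exceeded E4 by 4 peaks. With 1 library each, this was not tested. At equal list length the counts were 8 in D3, 8 in E4 and 11 in WT.

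The median rank difference of the 10 HOXB regions called in all lists had opposite signs, 0.96 points for D3 minus WT and −2.07 for E4 minus WT, which are 3.03 points apart. This was not tested either. Single regions of the series spread far wider, with a central 80% from −23.5 to 23.4 points for D3 and from −24.3 to 23.9 for E4.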

How the results depend on the processing

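Of 89 alternative values 62 stayed close to the reported one, 23 moved and 4 reversed. With only peaks at a −log10 q of 5 or above, D3 and E4 without WT shared 1 region, E4 without D3 had 0 regions, and 0 WT peaks lacked both clones. D3 then overlapped 100% of 25 WT peaks, the flanks held 1.81 regions per 100 kb, and the median rank difference was 1.12 for D3 and, reversed, 1.91 for E4. At equal list length by −log10 q, D3 and E4 without WT shared 1 region, E4 without D3 had 3, 4 WT peaks lacked both clones, and the median rank differences reversed to −0.24 for D3 and 0.65 for E4. At equal length by fold these were 1 region, 4 regions, 4 WT peaks, 1.21 for D3 and −0.74 for E4. With 50% coverage 4 WT peaks lacked both clones. Wider windows gave −0.15 for D3, reversed, and −0.85 for E4. Holding D3 and E4 to fewer peaks raises the counts of E4 without D3 and of WT peaks lacking both clones by construction. It likewise lowers the count of D3 and E4 without WT. For the other changes the cause was not tested. No paired analysis was possible because each population has a single library, so no replicate could be left out. Depth is unknown, so whether a peak absent from a list was within reach of that library was not tested. The D3 peaks at HOXA5, between HOXC9 and HOXC8 and between HOXC5 and HOXC4 were called in D3 alone also at equal list length and at a −log10 q of 5 or more.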

Other observations

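Outside the windows, the nearest region on the EVX1 side of HOXA was 14.5 kb away and called in all 3 lists, at percentile 84.4 in D3, 73.4 in E4 and 79.2 in WT. On the HOXB1 side of HOXB it was 15.3 kb away, at percentile 7.35 in D3 and 36 in WT, with no E4 peak. The nearest one was 121 kb away on the HOXC13 side of HOXC, in D3 only, and 111 kb away on the EVX2 side of HOXD, in D3 and E4. Among related genes, CDX1, an intestinal homeobox gene, had 4 D3 peaks, 2 E4 peaks and 2 WT peaks, and GSX1 and PKNOX1 each had 1 D3 peak, 0 E4 peaks and 1 WT peak.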
